A study of Mus musculus with 9 samples.

Results

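The genes described are 9 markers of the mural cells of blood vessels, in 3 smooth muscle genes (Acta2, Tagln and Myh11) and 6 pericyte genes (Pdgfrb, Rgs5, Vtn, Kcnj8, Abcc9 and Anpep), out of 27339 genes in the deposited expression table. They were taken by their gene names, and all 9 were found. The set was drawn up with earlier results of these data known, in which Acta2 was lower in MPTP-treated nigra than in control nigra, and they count as chosen by the CPM difference between MPTP and Ctrl, which is given below as a description. The tissue was mouse substantia nigra pars compacta, a midbrain region whose dopamine neurons are lost in Parkinson's disease. There were 3 groups of 3 libraries each. In the MPTP + MCT-KD group the mice had MPTP and the MCT-KD, read here as a ketogenic diet built on medium-chain triglycerides, which the labels do not spell out. In the MPTP group they had MPTP, a toxin that is turned into a substrate of the dopamine transporter and is used to injure dopamine neurons. The Ctrl group had neither, as far as its label says. Strain, age, sex, dose and timing were not given in the sources used here, and mice on the diet alone were not analysed here. Whether each library is a separate animal is not stated in the labels, so the p-values below measure the spread between these libraries, which may be technical in part.

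Mural cells wrap the endothelial tube. Smooth muscle cells form rings around arteries and arterioles, and shorten through an actin and myosin apparatus that includes the products of Acta2 (smooth muscle alpha-actin), Tagln (transgelin, an actin-binding protein) and Myh11 (smooth muscle myosin heavy chain). Genes of this contractile group are switched on by serum response factor (SRF) with its partner myocardin, which act at a DNA element called the CArG box. Pericytes sit on capillaries, where platelet-derived growth factor B from endothelium binds the receptor encoded by Pdgfrb and holds them in place, and in the brain they are needed for the blood-brain barrier. Smooth muscle cells carry several of the pericyte genes too, Pdgfrb and Rgs5 among them, so the 6 pericyte genes mark mural cells more widely than pericytes alone.

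The sequence just before the start of Acta2 is shown because it holds the kind of element that the contractile genes share, and that of Rgs5 is set beside it as a pericyte gene. Both are the 250 bases upstream of the start that RefSeq gives in build GRCm38.p6, read 5′ to 3′ on the gene's strand, with CArG boxes in capitals. The Acta2 window is chr19:34255374-34255623, minus strand, and the Rgs5 window is chr1:169655251-169655500, plus strand.
Acta2: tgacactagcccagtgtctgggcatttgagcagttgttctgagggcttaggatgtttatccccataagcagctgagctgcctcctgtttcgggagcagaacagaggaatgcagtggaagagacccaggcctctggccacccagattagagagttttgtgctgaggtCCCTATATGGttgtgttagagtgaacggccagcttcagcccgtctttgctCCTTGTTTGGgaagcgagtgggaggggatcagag
Rgs5: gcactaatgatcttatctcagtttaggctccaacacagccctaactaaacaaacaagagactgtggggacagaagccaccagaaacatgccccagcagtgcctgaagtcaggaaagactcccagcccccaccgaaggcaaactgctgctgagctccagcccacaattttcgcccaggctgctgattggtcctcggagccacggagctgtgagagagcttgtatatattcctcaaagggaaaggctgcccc
The Acta2 window held 2 CArG boxes, CCCTATATGG at 84 to 75 bases before the start and CCTTGTTTGG at 34 to 25 bases before it, each with 1 G or C in the core that the textbook element fills with A and T. The search for the textbook form found 0 in this window, and the looser form was adopted after the sequence had been seen. The element reads the same way on both strands, so 1 search covers them. The windows of Rgs5, Vtn, Kcnj8, Abcc9 and Anpep held 0 in either form, and 6 of the 9 members are in the RefSeq table used. Tagln and Myh11 are not in it, so Acta2 was the only smooth muscle gene searched. The windows therefore do not compare smooth muscle genes with pericyte genes. Over 32851 windows of the same length, 8.59% held at least 1 box in the looser form and 0.67% held 2 or more, and 1.47% held the textbook form. A match is a description of letters and not a site shown to bind anything. The RefSeq start of Acta2 lies 217 bases inside the gene as GENCODE draws it, so the same number of bases of this window lie inside that gene span.

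In the GENCODE annotation of GRCm38, Acta2 (ENSMUSG00000035783) spans 34241090 to 34255590 on chromosome 19, minus strand, and Myh11 (ENSMUSG00000018830) spans 14194535 to 14291372 on chromosome 16, minus strand. Tagln (ENSMUSG00000032085) spans 45929619 to 45936058 on chromosome 9, minus strand, and its end overlaps Pcsk7 on the opposite strand, with a further antisense gene inside it. Pdgfrb (ENSMUSG00000024620) spans 61045150 to 61085061 on chromosome 18, plus strand. Rgs5 (ENSMUSG00000026678) spans 169655501 to 169695813 on chromosome 1, plus strand, and Vtn (ENSMUSG00000017344) spans 78499091 to 78502324 on chromosome 11, plus strand. Kcnj8 (ENSMUSG00000030247, 142564837 to 142571614) and Abcc9 (ENSMUSG00000030249, 142587862 to 142702315) are neighbours on chromosome 6, minus strand, and an antisense gene lies within Abcc9. Anpep (ENSMUSG00000039062) spans 79821803 to 79861059 on chromosome 7, minus strand. The strand setting of the authors' counting was not given in the sources used here, so reads of the overlapping genes could not be told apart, and counts of Acta2 are uncertain to the extent that reads were shared with near-identical actin genes.

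The libraries held 33187343 to 40001344 counts each. The dopamine neuron marker Th, tyrosine hydroxylase, was present in all 9 libraries at 48.1 to 108 CPM (counts scaled to a common library total), as the labelled region should hold. A few libraries stood apart in marker genes of other tissue. Ctrl 3 carried choroid plexus RNA, with 1304 CPM summed over 9 choroid plexus genes, against 45.3 to 123 CPM in the other 8 libraries. MPTP + MCT-KD 1, MPTP 1 and MPTP 2 were low in meningeal fibroblast genes, at 153 to 176 CPM summed over 15 genes, against 247 to 383 CPM in the other 6 libraries.

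Per transcript length, the pericyte genes Vtn and Rgs5 were the most abundant members. Vtn, which encodes vitronectin, an adhesive protein of plasma and matrix that pericytes make in brain, averaged 41.7 FPKM (fragments scaled to transcript length and library total) over the 9 libraries, with a range of 33.4 to 48.4 FPKM. Rgs5, a brake on G protein signalling that is a classical pericyte marker, averaged 32.6 FPKM (30.2 to 35.8). Acta2 followed at 13.7 FPKM (8.10 to 20.9), then Tagln at 7.45 FPKM (3.40 to 11.2). The lower part of the order held Pdgfrb at 5.34 FPKM, Myh11 at 3.69 FPKM, Abcc9 at 2.57 FPKM, Kcnj8 at 2.18 FPKM and Anpep at 0.910 FPKM. Only the steps from Rgs5 to Acta2 and from Kcnj8 to Anpep had library ranges that did not overlap. Tagln exceeded Pdgfrb in 6 of 9 libraries and Myh11 exceeded Abcc9 in 7 of 9, so these neighbours were not separated by more than the spread between libraries.

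**Figure D1:**
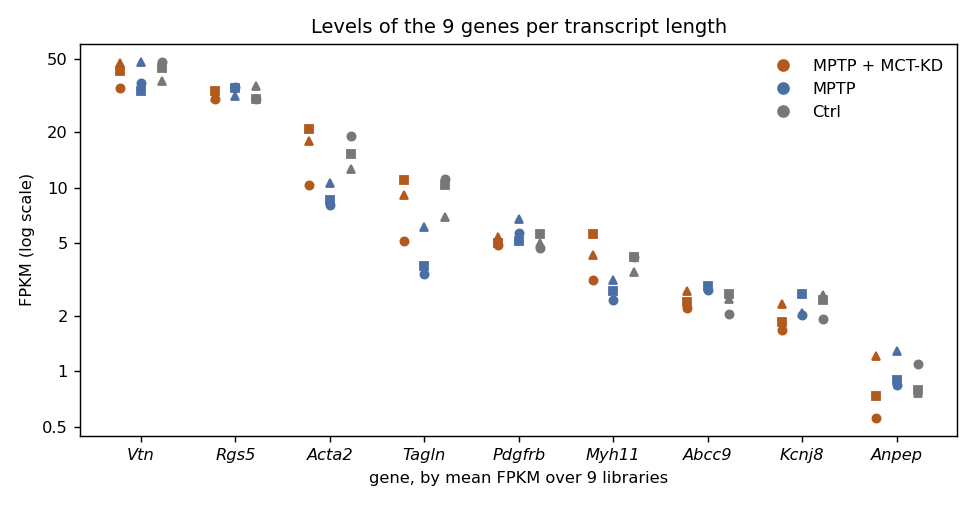
FPKM on a log scale (vertical axis) of each of the 9 genes (horizontal axis, ordered by mean), with MPTP + MCT-KD, MPTP and Ctrl from left to right within a gene and circles, squares and triangles for libraries 1, 2 and 3. Vtn and Rgs5 lie highest, at 33.4 to 48.4 and 30.2 to 35.8 FPKM, and the points of Acta2, Tagln and Myh11 are spread more widely than those of Rgs5.

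The 3 smooth muscle genes had low levels in every MPTP library and varied most between the MPTP + MCT-KD libraries. In bulk tissue such as this, fewer cells of a type and less RNA per cell cannot be told apart. Acta2 had 19.7, 39.5 and 33.96 CPM in the MPTP + MCT-KD libraries and 15.4, 16.1 and 19.3 CPM in the MPTP libraries, against 35.8, 28.8 and 23.5 CPM in the Ctrl libraries. Every MPTP library was below every library of the other groups, although MPTP + MCT-KD 1 lay just above MPTP 3. Group means of Acta2 were 31.0 ± 10.2 CPM in MPTP + MCT-KD and 16.9 ± 2.08 CPM in MPTP, against 29.4 ± 6.17 CPM in Ctrl (SD, n = 3 each).

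Tagln, whose product binds actin filaments in contractile cells, had 8.73, 18.8 and 15.5 CPM in the MPTP + MCT-KD libraries and 5.80, 6.34 and 9.98 CPM in the MPTP libraries, against 18.9, 17.5 and 11.4 CPM in the Ctrl libraries. Here MPTP + MCT-KD 1 lay between MPTP 2 and MPTP 3, so the diet and MPTP groups overlapped, and all MPTP libraries were below all Ctrl libraries. Tagln averaged 14.3 ± 5.11 CPM in MPTP + MCT-KD and 7.38 ± 2.27 CPM in MPTP, against 15.9 ± 3.95 CPM in Ctrl (SD, n = 3 each).

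Myh11, the motor protein most restricted to smooth muscle among the 3, had 21.8, 38.3 and 29.7 CPM in the MPTP + MCT-KD libraries and 16.9, 18.2 and 20.8 CPM in the MPTP libraries, against 28.7, 28.8 and 23.4 CPM in the Ctrl libraries. The MPTP libraries were again the lowest 3 of the 9. Its means were 30.0 ± 8.28 CPM in MPTP + MCT-KD and 18.6 ± 1.98 CPM in MPTP, against 27.0 ± 3.11 CPM in Ctrl (SD, n = 3 each).

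**Figure D2:**
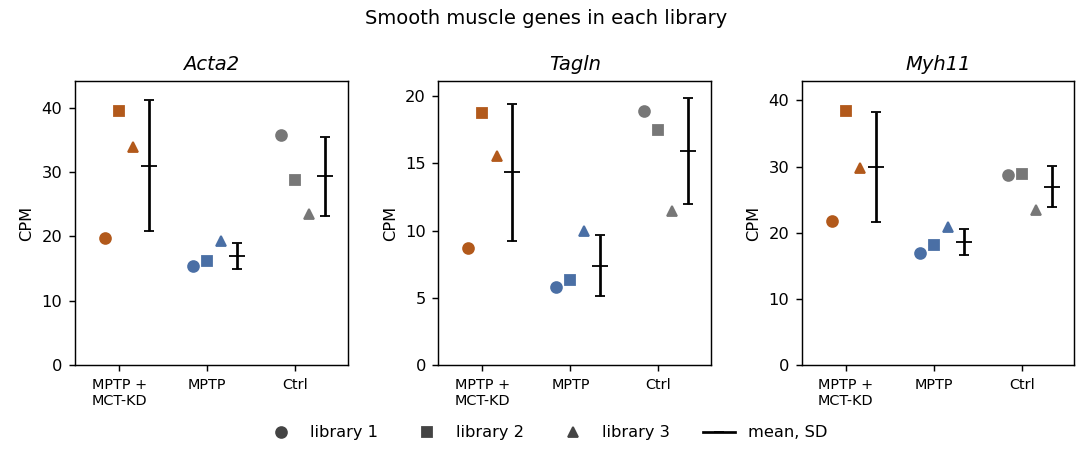
CPM (vertical axis, from 0) of Acta2, Tagln and Myh11 in each library of MPTP + MCT-KD, MPTP and Ctrl (horizontal axis), with group mean and SD as bars and the library number as the marker. The MPTP libraries of Acta2 lie at 15.4 to 19.3 CPM, and MPTP + MCT-KD 1 (circle) lies at 19.7 CPM, well under the other 2 libraries of its group.

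The order of the libraries was much the same for the 3 smooth muscle genes. MPTP 1 was the lowest and MPTP 2 the second lowest for each of them, and Ctrl 3 held the fifth place for each. The same 5 libraries were the lowest for all 3 genes, namely the 3 MPTP libraries, MPTP + MCT-KD 1 and Ctrl 3. From the lowest to the highest library, Tagln spanned 3.25-fold, Acta2 2.56-fold and Myh11 2.27-fold, on CPM.

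The diet was compared with MPTP alone, and the MPTP libraries are shared with the comparison that chose the genes. Relative to MPTP, MPTP + MCT-KD libraries had higher fitted values for all 3 smooth muscle genes, and none passed the test. The fitted log2 fold change of Acta2 was 0.87 ± 0.273 (SE), with an adjusted p of 0.625 by edgeR's quasi-likelihood test with Benjamini-Hochberg adjustment over 14949 genes. By the same edgeR test, Tagln had a log2 fold change of 0.96 ± 0.342 (SE) and an adjusted p of 0.630. Myh11 had 0.68 ± 0.188 (SE) and an edgeR adjusted p of 0.587. All diet libraries were above all MPTP libraries for Acta2 and Myh11 but not for Tagln. Matched by library number, each of the 3 genes was higher with the diet in 3 of 3 pairs. For Acta2 and Myh11 any matching gives this, since their groups did not overlap. The share of all genes with 3 of 3 pairs was not computed, so nothing is read from the pairs. Among the 9 members, edgeR called 0 at an adjusted p under 0.05, and it called 0% of all genes tested. At an unadjusted p under 0.05 there were 3 members, the 3 smooth muscle genes, against 7.78% of all genes tested. Groups did not overlap for 2 members with the diet higher, against 6.64% of all genes, and for 1 member with the diet lower, against 7.1%. The members count as chosen for their values in these MPTP libraries, so nothing is read from these counts against the shares of all genes. DESeq2 on the same counts and genes called 1 member, Myh11, with an adjusted p of 0.0494 and a log2 fold change of 0.68, among 19 genes called in all. The smooth muscle median, 0.87, was 0.51 when the mean log2 CPM of the fibroblast genes entered the fit as a covariate.

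Against Ctrl, whose libraries also took part in choosing the genes, the MPTP + MCT-KD values of the smooth muscle genes lay on both sides of the control values. The fitted log2 fold change was 0.079 ± 0.267 for Acta2, with an edgeR adjusted p of 0.966. It was -0.15 ± 0.332 for Tagln and 0.15 ± 0.185 for Myh11 (SE), with edgeR adjusted p of 0.950 and 0.918. No member had groups without overlap here, against 12.7% of all genes tested. By edgeR 0 members passed, against 0% of all genes, and 0 had an unadjusted p under 0.05, against 6.73% of all genes. DESeq2 called 16 genes in this comparison and 0 of the members.

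MPTP against Ctrl is the contrast with which the members were chosen. The fitted log2 fold changes were -0.79 ± 0.272 for Acta2, -1.11 ± 0.341 for Tagln and -0.53 ± 0.188 for Myh11 (SE), which are 0.577, 0.463 and 0.691 times the Ctrl level. All MPTP libraries were below all Ctrl libraries for these 3 genes, and 5.41% of all genes tested had the same arrangement. By edgeR 0 members had an adjusted p under 0.05, against 0.0134% of the genes tested, and DESeq2 called 14 genes and 0 members. Nothing is read from these counts, since the choice used them. With the fibroblast score as a covariate the smooth muscle median was -0.44 in place of -0.79.

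**Figure D3:**
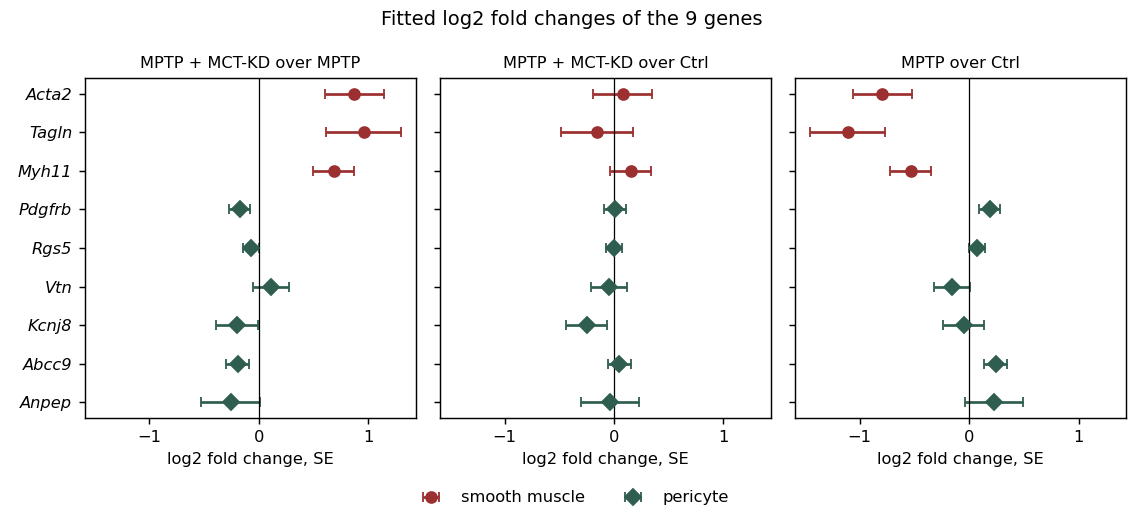
Fitted log2 fold change (horizontal axis, points, with the SE as bars) of the 9 genes (vertical axis) for MPTP + MCT-KD over MPTP, MPTP + MCT-KD over Ctrl, and MPTP over Ctrl. The smooth muscle genes lie at 0.68 to 0.96 in the first panel and at -0.53 to -1.11 in the last, and the 6 pericyte genes lie between -0.26 and 0.24 in all panels.

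Of 19 further smooth muscle genes listed, 17 had enough reads to be tested. Between MPTP + MCT-KD and MPTP, 13 of the 17 were higher and 4 lower in the fitted value, where 49.8% of all genes tested were lower. Their median log2 fold change was 0.17, against 0.00056 over all genes. None passed edgeR's test with adjustment, and 6 had an unadjusted p under 0.05, all higher, where 3.76% of all genes were. The median was 0.076 in MPTP + MCT-KD against Ctrl and -0.18 in MPTP against Ctrl, with 11 of 17 higher in the first, where 50.5% of all genes were lower, and 13 of 17 lower in the second, where 50.4% of all genes were lower. The list was chosen with earlier results of these data known, and it was read in the same libraries as the members. For that reason nothing is read from these counts against the shares of all genes. The 3 most abundant genes of the list were Tpm1, Nrip2 and Ppp1r14a. Tpm1, a tropomyosin made in many cell types, averaged 135 ± 5.34 CPM in MPTP + MCT-KD and 124 ± 5.35 CPM in MPTP, against 128 ± 4.02 CPM in Ctrl. Nrip2 averaged 50.5 ± 0.813, 49.99 ± 2.995 and 50.02 ± 6.25 CPM, and Ppp1r14a, an inhibitor of myosin phosphatase, 22.1 ± 1.60, 22.5 ± 2.91 and 20.6 ± 1.99 CPM, in the same order of groups (SD, n = 3 each).

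A pair of contractile genes chosen after their values were seen followed the members. Some other genes of the list also had their lowest group mean in MPTP, and some did not. Of the 17 tested, 13 were higher and 4 lower in MPTP + MCT-KD than in MPTP. Casq2 (log2 fold change -0.47) and Synpo2 (-0.040) were among the lower ones, and both had their highest group mean in MPTP. Cnn1, the actin-binding calponin of smooth muscle, had 0.404, 2.06 and 2.88 CPM in the MPTP + MCT-KD libraries and 0.340, 0.544 and 0.619 CPM in the MPTP libraries, against 1.17, 1.33 and 0.975 CPM in the Ctrl libraries. MPTP + MCT-KD 1 lay among the MPTP libraries, and the other 2 diet libraries were the highest of all 9. Its fitted log2 fold change was 1.82 in MPTP + MCT-KD against MPTP, with an edgeR adjusted p of 0.593. Myl9, a regulatory light chain of smooth muscle myosin, averaged 18.03 ± 3.75 CPM in MPTP + MCT-KD and 13.5 ± 0.803 CPM in MPTP, against 17.7 ± 0.527 CPM in Ctrl (SD, n = 3 each), with a log2 fold change of 0.42 against MPTP and an edgeR adjusted p of 0.593.

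The 6 pericyte genes spanned 1.17- to 2.02-fold from the lowest to the highest library, against 2.27- to 3.25-fold for the contractile ones. Pdgfrb, the receptor for platelet-derived growth factor B, had 28.0, 28.8 and 30.9 CPM in the MPTP + MCT-KD libraries and 32.7, 29.1 and 37.3 CPM in the MPTP libraries, against 26.8, 32.1 and 28.2 CPM in the Ctrl libraries. The groups overlapped, and the highest library was MPTP 3. Rgs5 had 133, 146 and 135 CPM in MPTP + MCT-KD and 155, 149.8 and 132 CPM in MPTP, against 132, 132 and 152 CPM in Ctrl. It was the steadiest member, spanning 1.17-fold over the 9 libraries.

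Vtn had 64.8, 79.5 and 89.1 CPM in the MPTP + MCT-KD libraries and 69.1, 61.4 and 86.0 CPM in the MPTP libraries, against 89.2, 83.0 and 69.1 CPM in the Ctrl libraries. Its lowest 4 libraries were MPTP 2, MPTP + MCT-KD 1, MPTP 1 and Ctrl 3, which were also among the lowest 5 of the smooth muscle genes, and each group held a low and a high library. Vtn spanned 1.45-fold.

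Kcnj8 and Abcc9 encode the pore Kir6.1 and the sulfonylurea receptor SUR2, which together form the ATP-sensitive potassium channel of mural cells. Kcnj8 had 4.55, 4.99 and 6.18 CPM in MPTP + MCT-KD and 5.55, 7.10 and 5.43 CPM in MPTP, against 5.22, 6.63 and 6.88 CPM in Ctrl. All 3 groups overlapped. Abcc9 had 17.7, 18.5 and 20.9 CPM in MPTP + MCT-KD and 21.4, 22.5 and 21.4 CPM in MPTP, against 15.9, 20.6 and 18.8 CPM in Ctrl. The MPTP libraries were the 3 highest of the 9 for this gene, followed by MPTP + MCT-KD 3. Both channel genes were highest in MPTP 2, and the lowest library was MPTP + MCT-KD 1 for Kcnj8 and Ctrl 1 for Abcc9.

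Anpep, aminopeptidase N or CD13, a membrane enzyme of pericytes that other cells also carry, was the scarcest member. It had 2.28, 2.96 and 4.502 CPM in MPTP + MCT-KD and 3.45, 3.59 and 4.61 CPM in MPTP, against 4.02, 2.91 and 3.04 CPM in Ctrl. The groups overlapped, and MPTP 3 and MPTP + MCT-KD 3 held the highest values.

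**Figure D4:**
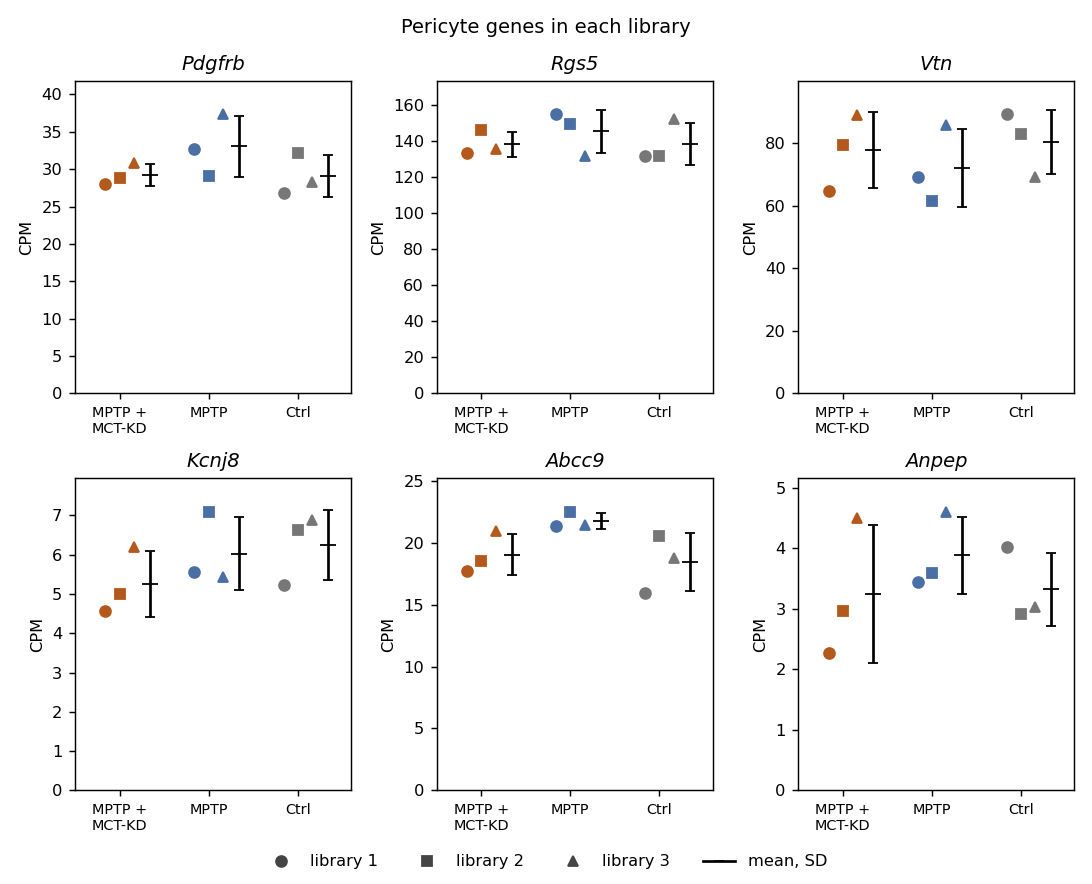
CPM (vertical axis, from 0) of the 6 pericyte genes in each library of MPTP + MCT-KD, MPTP and Ctrl (horizontal axis), with group mean and SD as bars and the library number as the marker. Rgs5 lies between 132 and 155 CPM in all 9 libraries, and Abcc9 is the only panel in which the MPTP points, at 21.4 to 22.5 CPM, lie above all others.

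Relative to MPTP alone, 5 of the 6 pericyte genes had a negative fitted value under MPTP + MCT-KD. Their median log2 fold change was -0.18, and none passed the test. Abcc9 had -0.19 ± 0.106 (SE) with an edgeR adjusted p of 0.680, and all its diet libraries were below all MPTP libraries. Pdgfrb had -0.18 ± 0.0988 (SE), with an edgeR adjusted p of 0.690, and its groups overlapped. The log2 fold changes of the other 4 ran from -0.26 (Anpep) through -0.20 (Kcnj8) and -0.073 (Rgs5) to 0.11 (Vtn), with edgeR adjusted p of 0.824 to 0.910. Matched by library number, Pdgfrb, Abcc9 and Anpep were lower with the diet in 3 of 3 pairs. For Abcc9 any matching gives this, since its groups did not overlap, and nothing is read from the pairs here either. For Rgs5 the SE was 0.0726, the smallest of the members, and for Anpep it was 0.266. The value of Anpep was -0.58 with the fibroblast covariate, -0.058 without MPTP + MCT-KD 1, -0.12 without MPTP 3 and -0.57 without MPTP + MCT-KD 3.

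Relative to Ctrl, the pericyte median of MPTP + MCT-KD was -0.019, and the fitted values ran from -0.25 (Kcnj8) to 0.047 (Abcc9), with edgeR adjusted p of 0.849 to 0.997. In MPTP against Ctrl, which chose the members, the values ran from -0.16 (Vtn) to 0.24 (Abcc9), with a median of 0.13. There Pdgfrb averaged 33.0 ± 4.11 CPM in MPTP, with 29.0 ± 2.78 CPM in Ctrl, and Abcc9 averaged 21.8 ± 0.647 CPM in MPTP, with 18.4 ± 2.34 CPM in Ctrl (SD, n = 3 each). Abcc9 was the 1 member with all MPTP libraries above all Ctrl libraries, an arrangement that 5.14% of all genes tested had.

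The 20 further pericyte genes listed were all tested, and none passed in any comparison by edgeR. Between MPTP + MCT-KD and MPTP, 9 were higher and 11 lower. Their median log2 fold change was -0.048, and 1 had an unadjusted p under 0.05 with the diet higher (3.76% of all genes) and 4 with it lower (4.02% of all genes). As with the further smooth muscle genes, nothing is read from these counts against the shares of all genes. The median was 0.057 in MPTP + MCT-KD against Ctrl and 0.089 in MPTP against Ctrl. Mcam, an adhesion molecule of mural and endothelial cells, averaged 29.1 ± 0.809 CPM in MPTP + MCT-KD and 32.6 ± 4.10 CPM in MPTP, against 28.3 ± 4.53 CPM in Ctrl. The connexin gene Gjc1 averaged 14.01 ± 2.29 CPM in MPTP + MCT-KD and 13.2 ± 3.39 CPM in MPTP, against 12.9 ± 4.44 CPM in Ctrl (SD, n = 3 each).

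The genes upstream of both groups were read next. Of 11 symbols listed for platelet-derived growth factors, receptors and the SRF machinery, 9 were in the table and 8 were tested, and 0 passed edgeR's test in any comparison. Their median log2 fold change was -0.076 in MPTP + MCT-KD against MPTP, -0.051 in MPTP + MCT-KD against Ctrl and 0.028 in MPTP against Ctrl. Srf itself averaged 28.2 ± 1.07 CPM in MPTP + MCT-KD and 29.4 ± 2.07 CPM in MPTP, against 29.3 ± 1.97 CPM in Ctrl. Mkl2, an actin-sensing partner of SRF also called MRTF-B, averaged 106 ± 3.89 CPM in MPTP + MCT-KD and 108 ± 3.18 CPM in MPTP, against 103 ± 3.49 CPM in Ctrl. Pdgfa averaged 36.7 ± 2.99 CPM in MPTP + MCT-KD and 39.1 ± 0.924 CPM in MPTP, against 41.3 ± 1.08 CPM in Ctrl (SD, n = 3 each). Pdgfb, the gene of platelet-derived growth factor B, averaged 20.3 ± 1.88 CPM in MPTP + MCT-KD and 22.1 ± 3.24 CPM in MPTP, against 21.3 ± 2.30 CPM in Ctrl. Myocardin (Myocd), the smooth muscle partner of SRF, was too scarce to be tested, at 0.602 ± 0.177 CPM in MPTP + MCT-KD and 0.321 ± 0.172 CPM in MPTP, against 0.323 ± 0.0809 CPM in Ctrl.

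The 7 genes listed as partners of the member channel and of vitronectin, other potassium channel subunits and integrins, had medians of 0.068, 0.053 and -0.015 in MPTP + MCT-KD against MPTP, MPTP + MCT-KD against Ctrl and MPTP against Ctrl, and 0 passed edgeR's test. The integrin subunits Itgb1, Itgb5 and Itgb8 averaged 83.2 ± 5.72, 62.6 ± 4.99 and 109 ± 3.98 CPM in MPTP + MCT-KD. The same 3 genes averaged 78.1 ± 6.01, 58.5 ± 0.662 and 102 ± 9.30 CPM in MPTP. In Ctrl they averaged 87.5 ± 1.95, 62.9 ± 7.11 and 104 ± 2.78 CPM (SD, n = 3 each).

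Smooth muscle and pericyte levels were then set side by side in each library, as the mean log2 CPM of each group of genes with the Ctrl mean at 0. The smooth muscle level was -0.56, 0.41 and 0.12 in the MPTP + MCT-KD libraries and -0.996, -0.90 and -0.53 in the MPTP libraries, against 0.23, 0.089 and -0.31 in the Ctrl libraries. The pericyte level was -0.24, -0.063 and 0.14 in MPTP + MCT-KD, 0.043, 0.059 and 0.15 in MPTP, and -0.031, 0.037 and -0.0062 in Ctrl. The smooth muscle level thus ranged over 1.40 log2 units and the pericyte level over 0.39. Both are means over genes, in which opposite changes cancel. The r of log2 CPM between pairs of genes over the 9 libraries was 0.94 to 0.97 within the smooth muscle genes. Within the pericyte genes it was -0.63 to 0.69, with a median of 0.27, so the pericyte mean hides more of the change of single genes. Between a smooth muscle and a pericyte gene it was -0.54 to 0.77, with a median of -0.22. The highest of these were for Vtn, at 0.72 with Acta2, 0.77 with Tagln and 0.63 with Myh11. The difference of the levels, smooth muscle minus pericyte, was -0.33, 0.47 and -0.017 in MPTP + MCT-KD, -1.04, -0.96 and -0.68 in MPTP, and 0.26, 0.052 and -0.31 in Ctrl. All 3 MPTP libraries were below the other 6 in this difference. The genes count as chosen for their values in the MPTP and Ctrl libraries, so nothing is read from this order.

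Markers of other vessel-associated cells were read in the same libraries. The mean log2 level of 16 endothelial genes stayed within -0.044 and 0.076 of the Ctrl mean in all 9 libraries, and their summed level was 643 to 704 CPM in MPTP + MCT-KD, 638 to 663 CPM in MPTP and 625 to 684 CPM in Ctrl. Of the 16, 7 were higher and 9 lower in MPTP + MCT-KD than in MPTP. Their log2 fold changes ran from -0.39 to 0.39 around a median of -0.0050, so the steady mean covers changes of single genes both ways. The glucose transporter gene Slc2a1 averaged 147 ± 26.9 CPM in MPTP + MCT-KD and 118 ± 10.8 CPM in MPTP, against 135 ± 21.1 CPM in Ctrl, and the tight junction gene Cldn5 48.4 ± 1.70, 53.3 ± 7.85 and 45.4 ± 3.54 CPM in the same groups. Ly6c1 averaged 37.5 ± 3.60 CPM in MPTP + MCT-KD and 30.8 ± 4.19 CPM in MPTP, against 30.7 ± 5.05 CPM in Ctrl (SD, n = 3 each).

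Meningeal fibroblast genes were low in several of the libraries that were low in smooth muscle genes. The mean log2 level of 14 tested fibroblast genes was -1.01, 0.32 and 0.55 in the MPTP + MCT-KD libraries and -1.29, -0.94 and 0.096 in the MPTP libraries, against 0.42, 0.036 and -0.46 in the Ctrl libraries. MPTP + MCT-KD 1, MPTP 1, MPTP 2 and Ctrl 3 were the low libraries of both, and MPTP 3 was low in smooth muscle genes only. The summed level of the 15 listed genes was 173 to 383 CPM in MPTP + MCT-KD, 153 to 267 CPM in MPTP and 247 to 345 CPM in Ctrl. Their median log2 fold change was 0.74 in MPTP + MCT-KD against MPTP, with 13 of 14 higher, and -0.59 in MPTP against Ctrl, with 13 of 14 lower. Igf2, a growth factor gene strong in the meninges, had 43.8, 98.8 and 125 CPM in the MPTP + MCT-KD libraries and 33.1, 40.5 and 64.0 CPM in the MPTP libraries, against 101, 81.6 and 90.2 CPM in the Ctrl libraries. Dcn (decorin) averaged 22.2 ± 8.71 CPM in MPTP + MCT-KD and 14.6 ± 4.52 CPM in MPTP, against 20.5 ± 2.01 CPM in Ctrl, and Pdgfra, which oligodendrocyte precursors carry as well, 61.7 ± 4.90, 66.7 ± 2.32 and 63.7 ± 3.62 CPM (SD, n = 3 each). No endothelial or fibroblast gene passed edgeR's test in any comparison. With the fibroblast level as a covariate, as given above, the smooth muscle medians were nearer to 0, and the part of meningeal tissue in the smooth muscle values was not tested.

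**Figure D5:**
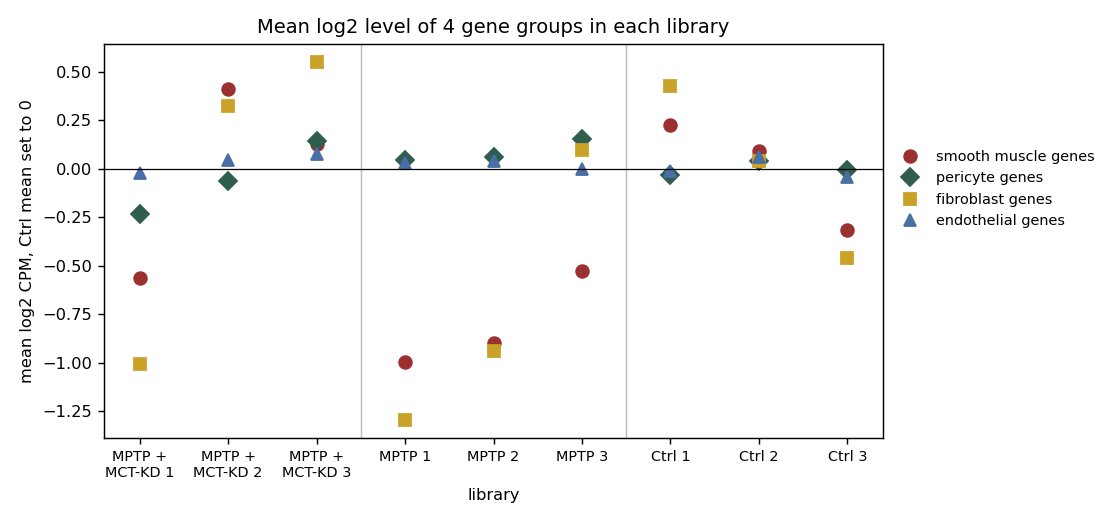
Mean log2 CPM of the 3 smooth muscle, 6 pericyte, 14 fibroblast and 16 endothelial genes (vertical axis, Ctrl mean at 0) in each of the 9 libraries (horizontal axis, MPTP + MCT-KD, then MPTP, then Ctrl). Smooth muscle and fibroblast points are low together in MPTP + MCT-KD 1, MPTP 1 and MPTP 2, while endothelial points stay within -0.044 and 0.076.

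The smooth muscle result was also recomputed without the libraries that stood apart. For MPTP + MCT-KD over MPTP, the median log2 fold change of the 3 genes was 1.11 without MPTP + MCT-KD 1, 0.81 without MPTP 1 and 0.84 without MPTP 2, against 0.87 with all libraries. For MPTP + MCT-KD over Ctrl it was 0.32 without MPTP + MCT-KD 1 and -0.057 without Ctrl 3, against 0.079. For MPTP over Ctrl it was -0.93 without Ctrl 3, -0.73 without MPTP 1 and -0.76 without MPTP 2, against -0.79. No member passed edgeR's test in any of these fits.

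The genes whose library pattern was most like the smooth muscle level, by Pearson r of log2 CPM over the 9 libraries among 12800 genes, were Znfx1 (0.979), Cavin1 (0.952), Ctgf (0.952), Igfbp6 (0.950) and Tinagl1 (0.950). The values of r are descriptions, since the genes were picked for them. The same libraries also differed in the level of meningeal fibroblast genes, as given above, and the part of this in r was not tested. Cavin1 encodes a coat protein of caveolae, the membrane pits common in smooth muscle and endothelium, and had 30.3, 40.4 and 37.1 CPM in MPTP + MCT-KD and 26.2, 26.4 and 31.7 CPM in MPTP, against 33.7, 35.6 and 33.2 CPM in Ctrl. Ctgf, a secreted matrix-associated protein now named Ccn2, had 6.11, 27.0 and 19.0 CPM in MPTP + MCT-KD and 4.08, 4.98 and 9.25 CPM in MPTP, against 19.3, 11.6 and 6.77 CPM in Ctrl. Ctgf ranged over 2.71 log2 units and Igfbp6, a binding protein of insulin-like growth factors, over 2.69, against 1.40 for the smooth muscle level, while Znfx1 ranged over 0.21. For the pericyte level the 5 most alike were Tsga10 (0.951), Armc6 (0.938), Taf15 (0.927), Zfp866 (0.926) and Cacng8 (0.918), and that level ranged over 0.39 log2 units. None of these 10 genes stood on any of the lists used here.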

How the data were processed

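RNA-seq libraries from mouse substantia nigra pars compacta were compared, 3 libraries in each of 3 groups, 9 in all. The deposited table holds raw read counts per gene, which the authors made before deposit, and FPKM values, which the authors scaled to gene length and library total, per the file headers. Per the submitters' processing notes, reads were placed on mm10 (GRCm38), while aligner, counter and strandedness were not given in the sources used here. Lines that named no gene (10 beside the 27339 genes) were left out, and 27 symbols that a spreadsheet had turned into dates were restored. CPM values were computed here from the counts and the library totals scaled by edgeR's TMM factors. Names and spans came from GENCODE M21 and promoter windows from RefSeq GRCm38.p6.

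The 14949 genes whose FPKM averaged at least 0.5 over all 9 libraries, the 9 members among them, were fitted in R 4.3.3 with edgeR 4.0.16, TMM factors (0.983 to 1.02) and quasi-likelihood tests over all 3 groups, with Benjamini-Hochberg adjustment and a threshold of 0.05. The script was tested on simulated data. Alternatives were DESeq2 1.42.0, limma 3.58.1 on log2(FPKM + 0.1) and log2(FPKM + 1), other filters and normalizations, covariates, a replicate block and leaving out each library. Log2 CPM values used a prior count of 2. The common biological coefficient of variation was 0.134, and the counts limit the precision of scarce genes such as Cnn1. Between libraries of the same group, chi-square per degree of freedom was at least 10.9, so none of these pairs was close to a duplicate.

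Members and lists were chosen with earlier results of these data known. The lists were smooth muscle, pericyte, regulator, partner, endothelial, arterial endothelial, fibroblast, choroid plexus, red cell, border macrophage, microglia and dopamine neuron genes. Named by rule were the 9 members, the 3 most abundant genes of each list described gene by gene and any gene that passed, and the 5 genes most like each member group. Cnn1, Myl9, Casq2, Synpo2, Pdgfb and Myocd fall outside this rule and were chosen after their values were seen. The values of 1 gene that this rule names are not reported here.

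The replicate numbers of the titles were checked for pairing by correlating the deviations of same-numbered libraries from their group means. The r was 0.107 to 0.182 between MPTP + MCT-KD and MPTP, above 0.1 in every pair. On that ground the same-numbered libraries of these groups were matched. Libraries of different number were not correlated for comparison and the labels state no pairing, so pairing was not shown. The r was -0.00735 to 0.0783 between MPTP + MCT-KD and Ctrl and -0.151 to 0.0472 between MPTP and Ctrl, and those libraries were not matched.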

Additional observations from a re-analysis of the deposited data

How the results depend on the processing

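No member passed edgeR's test in any comparison under any edgeR or limma setting, and DESeq2 called 1 (Myh11, adjusted p = 0.0494) in MPTP + MCT-KD against MPTP. With the replicate number as a block, 0 members were called, and the smooth muscle medians (log2 fold change) were 0.85 in MPTP + MCT-KD against MPTP, 0.046 against Ctrl and -0.81 in MPTP against Ctrl. With the fibroblast score as a covariate they were 0.51 in MPTP + MCT-KD against MPTP and -0.44 in MPTP against Ctrl, and Vtn changed sign, to -0.090 and 0.050. In MPTP + MCT-KD against Ctrl, where values lay near 0, signs changed with the endothelial covariate (Acta2 -0.078, Pdgfrb -0.020, Rgs5 0.0031, Abcc9 -0.015), with limma (Pdgfrb -0.0030 and -0.0028 at pseudocounts of 0.1 and 1) and with only the 2 groups fitted (Rgs5 0.00052). The cause was not tested. Anpep has no value under the filter of 1 FPKM.

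Leaving out 1 library at a time, the smooth muscle median ran from 0.67 to 1.11 in MPTP + MCT-KD against MPTP, from -0.13 to 0.32 in MPTP + MCT-KD against Ctrl and from -0.93 to -0.62 in MPTP against Ctrl. The pericyte median ran from -0.24 to -0.083, from -0.092 to 0.053 and from 0.086 to 0.15 in these comparisons. Signs changed for Vtn (-0.0017 to 0.25) in the first and for Kcnj8 (-0.18 to 0.024) in the last. In MPTP + MCT-KD against Ctrl they changed for Acta2 (-0.13 to 0.32), Tagln (-0.39 to 0.10), Myh11 (-0.061 to 0.34), Pdgfrb (-0.041 to 0.089), Rgs5 (-0.040 to 0.070), Vtn (-0.16 to 0.067), Abcc9 (-0.044 to 0.13) and Anpep (-0.34 to 0.17). Groups of 3 limit every comparison.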

Other observations

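Of 7 arterial endothelial genes listed, 6 were tested and 0 passed edgeR's test. Their median log2 fold change was 0.20 in MPTP + MCT-KD against MPTP, -0.065 in MPTP + MCT-KD against Ctrl and -0.075 in MPTP against Ctrl. Hey1, a Notch target, averaged 43.1 ± 2.03 CPM in MPTP + MCT-KD, 45.0 ± 2.39 CPM in MPTP and 44.0 ± 0.869 CPM in Ctrl. Efnb2, the arterial ephrin, averaged 19.9 ± 3.28 CPM in MPTP + MCT-KD, 16.5 ± 3.55 CPM in MPTP and 21.3 ± 2.89 CPM in Ctrl. Gja4, an arterial connexin, averaged 3.24 ± 0.575 CPM in MPTP + MCT-KD, 4.47 ± 0.316 CPM in MPTP and 4.19 ± 0.505 CPM in Ctrl (SD, n = 3 each).

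Red cell genes, which report blood left in the tissue, had medians of 0.19, -0.54 and -0.65 over 5 genes in MPTP + MCT-KD against MPTP, MPTP + MCT-KD against Ctrl and MPTP against Ctrl. Their summed level was 281 CPM in Ctrl 3, against 166 CPM in Ctrl 1 and 181 CPM in Ctrl 2. It was 135 to 181 CPM in MPTP + MCT-KD and 98.4 to 167 CPM in MPTP. Border macrophage genes, from the cells that line brain vessels and meninges, had medians of 0.37, 0.24 and -0.34 over 5 tested genes in the same comparisons. Microglia genes had medians of 0.062, 0.17 and 0.11 over 9 genes. Dopamine neuron genes had medians of -0.0061, -0.35 and -0.35 over 9 genes. All 9 were lower than in Ctrl in the fitted value, both in MPTP + MCT-KD and in MPTP. Choroid plexus genes had medians of 0.40, -1.73 and -1.95 over 8 tested genes. The medians against Ctrl rest on Ctrl 3, where the mean log2 level of these genes was 2.23, against -0.95 in Ctrl 1 and -1.27 in Ctrl 2. No gene of these lists passed edgeR's test in any comparison.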
